A study of Mus musculus with 8 samples.

Results

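Small RNA libraries of mouse liver were compared by how much of each library was known miRNA. The CPM of all names that start mmu-miR or mmu-let was summed in each of the 8 libraries, CPM being tags per 1000000 tags of the whole library. The 4 libraries at 700000 CPM or more formed the high-share group (Snd1 KO replicates 2 and 3, WT replicates 1 and 2). The other 4 of the 8 formed the low-share group (Snd1 KO replicates 1 and 4, WT replicates 3 and 4). The libraries were thus chosen by values measured in the same files, so that every high-share against low-share value below is a description without a test, and tests are given for genotype alone. Known miRNAs took 75.9%, 77.6%, 78.2% and 78.7% of the tags in KO2, KO3, WT1 and WT2, against 57.9%, 65.9%, 62.6% and 67.6% in KO1, KO4, WT3 and WT4. The libraries nearest to the threshold were KO2, inside it with 758701 CPM, and WT4, outside it with 676109 CPM.

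Each group held 2 Snd1 KO and 2 WT mice. All 8 were C57BL/6N males of 8 to 12 weeks, and the left liver lobe was taken around noon without fasting. The KO mice carried a germline deletion of the first Snd1 exon, made in 129-derived embryonic stem cells with a ubiquitous CAG-promoter Cre and backcrossed, and the WT mice came from the same heterozygous breeding. RNA of 18 to 30 bases was cut from a gel and sequenced, with 1 library per mouse. The files give exon tags as 1 summed row and not by gene, so the loss of Snd1 could not be checked in them, and no date or batch of preparation is given in the sources used here.

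A miRNA is cut from a hairpin precursor by Drosha and Dicer. The guide arm of the duplex is then loaded into Argonaute and directs it to mRNAs through its seed, while the passenger arm is mostly lost. Liver RNA of this size is dominated by miR-122, the main miRNA of hepatocytes. The rest comprises fragments of longer RNAs such as rRNA, tRNA and snoRNA, tags of introns, exons and repeats, and sequences that match piRNAs, which guard the germ line against transposons. Snd1, or Tudor-SN, is a nuclease found with the RNA-induced silencing complex.

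The miRNAs that differed most between the library groups are printed first, with their base composition. Mature sequences came from RefSeq (GRCm38.p6), in which 402 of the 475 known miRNAs examined were matched by name to 1 sequence. They run 5′ to 3′ with the seed, bases 2 to 8, in capitals. Of the 8 miRNAs furthest above the low-share group in the high-share group, the following 7 were matched. Their C share ran from 13.0% to 30.4%, and their G and C share from 31.8% to 50%.
miR-137-3p: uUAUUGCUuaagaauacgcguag
miR-96-5p: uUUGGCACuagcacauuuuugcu
miR-148b-3p: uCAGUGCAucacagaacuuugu
miR-31-3p: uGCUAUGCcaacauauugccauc
miR-30a-3p: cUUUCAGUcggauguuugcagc
miR-450a-5p: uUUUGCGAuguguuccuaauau
miR-126a-3p: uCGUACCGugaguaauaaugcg

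Of the 8 miRNAs furthest below, these 6 were matched, and C made up 36.4% to 59.1% of their bases. G and C together made up 45.5% to 65.2%, which overlaps with the range of the miRNAs above.
let-7b-3p: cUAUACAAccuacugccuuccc
miR-339-5p: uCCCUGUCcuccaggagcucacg
miR-434-3p: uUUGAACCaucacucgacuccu
miR-1249-3p: aCGCCCUUcccccccuucuuca
let-7d-3p: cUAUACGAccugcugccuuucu
miR-7085-3p: uAGCUGGCcucuccccaccuuc

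A pair of let-7 guide arms with 1 seed differed in opposite directions between the groups, and miR-30a-5p is the other arm of the hairpin that gives miR-30a-3p. They are shown with the miRNAs on which the genotype comparison turned.
let-7g-5p: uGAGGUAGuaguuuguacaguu
let-7b-5p: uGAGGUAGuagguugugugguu
miR-30a-5p: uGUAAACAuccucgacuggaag
miR-1247-5p: aCCCGUCCcguucguccccgga
miR-802-3p: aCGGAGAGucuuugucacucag
miR-21a-5p: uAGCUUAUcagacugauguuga

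These miRNAs come from many chromosomes. miR-126a-3p lies at chr2:26591402-26591423 on the plus strand and let-7g-5p at chr9:106178846-106178867 on the plus strand. The let-7b arms lie at chr15:85707325-85707346 and chr15:85707379-85707400, both on the plus strand. let-7d-3p lies at chr13:48536024-48536045 on the minus strand and miR-1247-5p at chr12:110278094-110278115 on the minus strand.

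The tags that known miRNAs lacked in the low-share libraries were mostly of genomic origin. Intergenic tags made up 3.92% ± 0.561 of the high-share libraries (SD, n = 4) and 10.7% ± 1.77 of the low-share libraries (SD, n = 3), so that the low-share mean was 2.73 times as high. Repeat tags made up 4.90% ± 0.508 in high-share libraries and 7.76% ± 2.16 in low-share libraries. Intron tags made up 2.67% ± 0.271 in high-share libraries and 4.15% ± 0.812 in low-share libraries. Exon tags made up 3.74% ± 0.120 in high-share libraries and 5.07% ± 0.440 in low-share libraries. None of these 4 classes overlapped between the groups, with n = 4 and n = 3, since the file of KO1 lists none of them and leaves 35.2% of its tags unlisted. Together they took 14.3% to 17.1% of the high-share libraries, against 25.4% to 29.9% of the 3 low-share libraries.

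Introns and repeats had a similar mean weight in the remainder of both groups. Of the tags outside known miRNAs, introns took 11.9% in both groups, and repeats 21.8% in the high-share and 22.2% in the low-share libraries. Exons took 16.7% of that remainder in high-share and 14.7% in low-share libraries, with overlap. Intergenic tags took 16.0% to 19.4% of it in high-share and 25.7% to 37.2% in low-share libraries, without overlap. Rfam rows took 26.3% to 31.6% of it in high-share and 13.0% to 18.9% in low-share libraries, also without overlap. Library depth moved with the split as well. Totals, inferred from the values as the number that turns every value into whole tags, were 24519879 to 27526162 tags in high-share and 16223610 to 24130669 tags in low-share libraries, without overlap, and the part of depth in any difference was not tested. At these depths 1 tag is worth 0.0363 to 0.0616 CPM. No molecular identifiers marked the PCR reads, so depth speaks to counting error only.

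**Figure D1:**
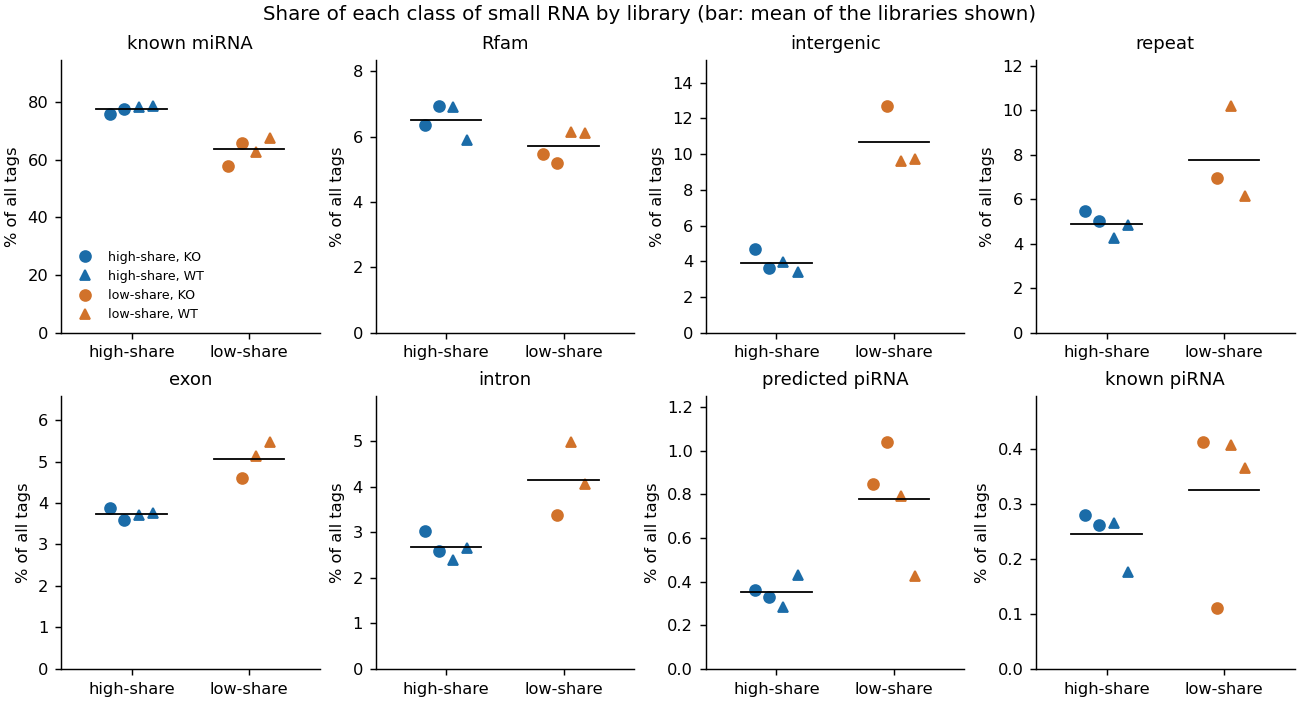
Percent of all tags in 8 classes of small RNA, with 1 point per library (circles KO, triangles WT) and a bar at the mean of the libraries shown. High-share libraries sit above low-share libraries for known miRNA and below them for intergenic, repeat, exon and intron tags, for which KO1 has no point, while the Rfam and piRNA classes overlap.

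Rfam rows, which group tags by RNA family, made up 6.52% ± 0.505 of high-share and 5.73% ± 0.466 of low-share libraries (SD, n = 4 each), with overlap. The 2 parts of this class moved in opposite directions. Families of miRNA precursors summed to 51417 to 59262 CPM in high-share libraries, against 33124 to 42868 CPM in low-share libraries. All other Rfam families together summed to 7429.5 to 11559.5 CPM in high-share libraries, against 11819 to 21590 CPM in low-share libraries. The precursor rows hold tags of 18 to 30 bases, so whole precursors were not measured. Tags of the precursor families went with the mature miRNAs. They amounted to 65342 to 76354 per 1000000 known miRNA tags in high-share and 57201 to 68450 in low-share libraries, and these overlapped.

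Among the other families, tmRNA-named rows summed to 1371 to 2941 CPM in high-share and 3671 to 5374 CPM in low-share libraries, without overlap. The name is that of a bacterial RNA, and only the row name was used here. Rows of Y, 7SK, SRP and vault RNA, all short RNAs of mammalian ribonucleoproteins, with U7, RNase P and MRP, summed to 225 to 283 CPM in high-share and 328 to 521 CPM in low-share libraries, also without overlap. rRNA overlapped, with 2598 to 4936 CPM in high-share and 3554 to 9921 CPM in low-share libraries. tRNA and snoRNA rows overlapped too. KO1 had the highest rRNA sum of the 8, and its snoRNA sum of 6166 CPM stood beside 2328 to 3586 CPM in the other 7. Relative to the tags outside known miRNAs, none of these groups kept the libraries apart.

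Single Rfam rows were compared per 1000000 tags outside known miRNAs, and 169 rows passed the filter of 1 CPM or more in 4 or more libraries. All 4 high-share libraries exceeded all 4 low-share libraries in 31 of them, 18.3% of the rows, and fell below in 3, 1.78% of the rows. Precursor families supplied 26 of the 31, and snoRNA families the other 5. The median log2 difference was 1.05 over the 62 precursor rows and 0.54 over the 67 snoRNA rows, beside 0.54 over all 169. As deposited CPM the rows without overlap were 11 higher and 16 lower, since the remainder itself is smaller in high-share libraries.

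The largest precursor row was that of mir-122 (RF00684), with 78707 and 102051 tags in KO2 and KO3 and 91286 and 87482 in WT1 and WT2, against 17447 and 41636 in KO1 and KO4 and 38123 and 25520.4 in WT3 and WT4. The row of mir-451 (RF00722), a miRNA of red cells, had 21939.9 and 19786 tags in KO2 and KO3 and 29912 and 19505 in WT1 and WT2, against 5734 and 3274 in KO1 and KO4 and 6764 and 10639.7 in WT3 and WT4. The row of mir-192 and mir-215 (RF00130) had 19098 and 22705 tags in KO2 and KO3 and 26774 and 21502 in WT1 and WT2, against 6115 and 11695 in KO1 and KO4 and 9691 and 14365 in WT3 and WT4. All 3 were higher in every high-share library, by 1.63, 1.89 and 1.16 on the log2 scale. The share outside known miRNAs, the divisor here, is smaller in every high-share library by the way the groups were made. Differences of precursor rows on this scale are thus in part built in. Relative to mature tags of the same family name, the mir-122 row overlapped, with 5.37% to 6.98% in high-share and 3.24% to 6.84% in low-share libraries. The mir-451 row overlapped too, with 27.6% to 37.9% and 13.7% to 36.3%. As deposited CPM the mir-122 and mir-451 rows did not overlap, while the mir-192 row (RF00130) did, with 4653 CPM in WT4 of the low-share group above KO2 and WT2 of the high-share group. The mir-30 row (RF00131) overlapped and had 10787 and 21825 tags in KO2 and KO3 and 17459 and 8792 in WT1 and WT2, against 23229 and 18639 in KO1 and KO4 and 15217 and 26179.9 in WT3 and WT4.

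The precursor rows that differed most were those of mir-143, mir-101, mir-203, mir-21 and mir-126, with log2 differences of 3.21, 3.16, 3.03, 2.48 and 2.14. mir-21 (RF00658) had 6022 and 6596 tags in KO2 and KO3 and 11441 and 11185 in WT1 and WT2, against 561 and 2460.0 in KO1 and KO4 and 3285 and 1138 in WT3 and WT4. mir-126 (RF00701), the family named for the precursor of the endothelial miR-126a, had 14749.8 and 11563 tags in KO2 and KO3 and 10528 and 14050.1 in WT1 and WT2, against 2009.7 and 3045 in KO1 and KO4 and 2666 and 4126 in WT3 and WT4. Of these 5 rows mir-143 overlapped as deposited CPM. Spread inside the low-share group was wide in this set. mir-143 (RF00683) had 1202 and 971 tags in KO2 and KO3 and 840.0 and 791 in WT1 and WT2, against 13.7 and 513 in KO1 and KO4 and 349 and 38.8 in WT3 and WT4. KO1 and WT4 were the lowest in the mir-143, mir-101, mir-203 and mir-21 rows. Without KO1 the log2 difference was 2.10 for mir-143, 2.57 for mir-101 and 2.35 for mir-203. It was 3.93 for mir-143 without WT3, and 4.16 for mir-143 and 3.79 for mir-203 without KO4. The 1 family of at least 10 CPM that was lower in all high-share libraries was mir-484 (RF00783), with 107 and 169 tags in KO2 and KO3 and 164 and 140.1 in WT1 and WT2, against 249.9 and 286 in KO1 and KO4 and 299 and 188 in WT3 and WT4, a log2 difference of -0.81.

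Set against the mature tags of the same family name, precursor rows differed less. In 36 families with both, the ratio did not overlap in 4, all higher in high-share libraries. The mean ratio was higher in high-share libraries in 28 of the 36. For mir-126 the row held 19.9 and 16.4 tags per 100 mature tags in KO2 and KO3 and 18.3 and 15.3 in WT1 and WT2, against 14.6 and 16.4 in KO1 and KO4 and 16.0 and 20.1 in WT3 and WT4. The mir-126 row and the mature miR-126a tags thus differed between the groups in the same ratio, within the spread. For mir-101 (RF00253) the ratio was 175 and 210.1 in KO2 and KO3 and 179 and 169 in WT1 and WT2, against 29.2 and 155 in KO1 and KO4 and 168 and 34.8 in WT3 and WT4, where KO1 and WT4 were far below the rest.

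Known miRNAs were put on a scale of tags per 1000000 known miRNA tags, which divides out the share that formed the groups. Of the 1341 known miRNAs in any library, 475 reached 1 CPM in 4 or more of the 8. All high-share libraries exceeded all low-share libraries in 31 of these, 6.53% of them, and all fell below in 138, 29.1% of them. The median log2 difference, high minus low with genotype in the model, was -0.51, and 343 of the 475 were negative. High-share libraries were also more concentrated in few miRNAs, and the 10 most abundant took 72.3% to 74.4% of the known miRNA tags there, against 66.4% to 69.4% in low-share libraries. As deposited CPM the median was -0.24 with 46 higher and 100 lower, and with median-ratio scaling -0.06 with 86 higher and 76 lower. The 31 higher were among the higher under both other scales, while 100 and 76 of the 138 lower were among the lower under CPM and median-ratio scaling.

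The differences were not limited to rare miRNAs. Among 50 miRNAs with a mean of at least 1000 CPM, 4 were higher and 17 lower without overlap. Among 215 with a mean under 10 CPM, 13 were higher and 65 lower. The split was also the larger of the 2 contrasts of the study in these libraries: the median size of the log2 difference was 0.68 for high minus low and 0.27 for KO minus WT. The split was chosen on the data and the genotype was not, so the 2 sizes are no test of one against the other.

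The 8 miRNAs of at least 10 CPM that were furthest above in high-share libraries are given in tags per 1000000 known miRNA tags. miR-126a-3p, the endothelial miRNA from an intron of Egfl7, had 23102 and 19690.0 tags in KO2 and KO3 and 15604 and 23905 in WT1 and WT2, against 9594 and 9378 in KO1 and KO4 and 9312 and 9297 in WT3 and WT4, a log2 difference of 1.11 with a residual SD of 0.21. Its 4 low-share values were nearly level, and the high-share values varied more. miR-30a-3p had 577 and 864 in KO2 and KO3 and 672 and 595 in WT1 and WT2, against 274 and 199.5 in KO1 and KO4 and 258 and 506 in WT3 and WT4. miR-31-3p had 289 and 297 in KO2 and KO3 and 198 and 197 in WT1 and WT2, against 82.6 and 117 in KO1 and KO4 and 64.3 and 140.1 in WT3 and WT4. Both of these are the rarer arm of their hairpin, and neither overlapped.

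The other 5 were scarcer, and miR-137-3p differed most. miR-137-3p, best known from neurons, had 38.0 and 47.3 tags in KO2 and KO3 and 19.5 and 18.6 in WT1 and WT2, against 10.3 and 8.18 in KO1 and KO4 and 6.50 and 5.37 in WT3 and WT4, a log2 difference of 1.81. In both groups its KO values exceeded its WT values. miR-96-5p, of the miR-183 cluster of sensory cells, had 87.4 and 113 in KO2 and KO3 and 35.6 and 29.2 in WT1 and WT2, against 22.0 and 25.5 in KO1 and KO4 and 27.5 and 12.7 in WT3 and WT4, a log2 difference of 1.39. miR-148b-3p, which shares its seed with miR-148a-3p, had 69.3 and 71.6 in KO2 and KO3 and 73.4 and 36.3 in WT1 and WT2, against 12.6 and 18.4 in KO1 and KO4 and 35.03 and 35.9 in WT3 and WT4, where WT2 of the high-share group and WT4 of the low-share group nearly met. The lead of high-share libraries was thus narrow for miR-148b-3p and wide for miR-137-3p in KO mice. miR-467a-5p, of the rodent cluster in Sfmbt2, and miR-450a-5p, of an X-linked cluster, had log2 differences of 1.19 and 1.14.

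The 8 furthest below differed more than the 8 furthest above. let-7b-3p, the passenger arm of let-7b, had 18.6 and 33.1 tags in KO2 and KO3 and 16.6 and 20.5 in WT1 and WT2, against 199 and 137 in KO1 and KO4 and 211 and 135 in WT3 and WT4, a log2 difference of -2.90 with a residual SD of 0.40. let-7d-3p, also a passenger arm, was the most abundant of the 8 and had 3545 and 3272 in KO2 and KO3 and 2278 and 1636 in WT1 and WT2, against 14365 and 14880.4 in KO1 and KO4 and 10865 and 8539.9 in WT3 and WT4, a log2 difference of -2.21. In CPM its highest high-share library and its lowest low-share library were still apart. miR-151-3p, from an intron of Ptk2, had 124 and 32.1 in KO2 and KO3 and 117 and 188 in WT1 and WT2, against 546 and 439 in KO1 and KO4 and 1516 and 703 in WT3 and WT4. WT3 was the highest library for miR-151-3p and KO3 the lowest.

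miR-339-5p had 4.17 and 2.80 in KO2 and KO3 and 2.86 and 2.67 in WT1 and WT2, against 21.2 and 24.1 in KO1 and KO4 and 136 and 9.41 in WT3 and WT4, a log2 difference of -2.87. The difference was -2.03 without WT3, which was far above the other libraries, and -3.52 without WT4. miR-434-3p, of the imprinted Dlk1-Dio3 cluster, had 21.8 and 27.5 in KO2 and KO3 and 13.5 and 2.33 in WT1 and WT2, against 128 and 203 in KO1 and KO4 and 62.7 and 35.9 in WT3 and WT4. In both groups its KO values exceeded its WT values. miR-1249-3p had 11.8 and 18.7 in KO2 and KO3 and 10.4 and 15.6 in WT1 and WT2, against 102 and 45.6 in KO1 and KO4 and 83.4 and 93.7 in WT3 and WT4. miR-466i-5p, labelled with the mir-467 family like miR-467a-5p but on the other side of the comparison, had a log2 difference of -2.28. miR-7085-3p had one of -2.12.

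**Figure D2:**
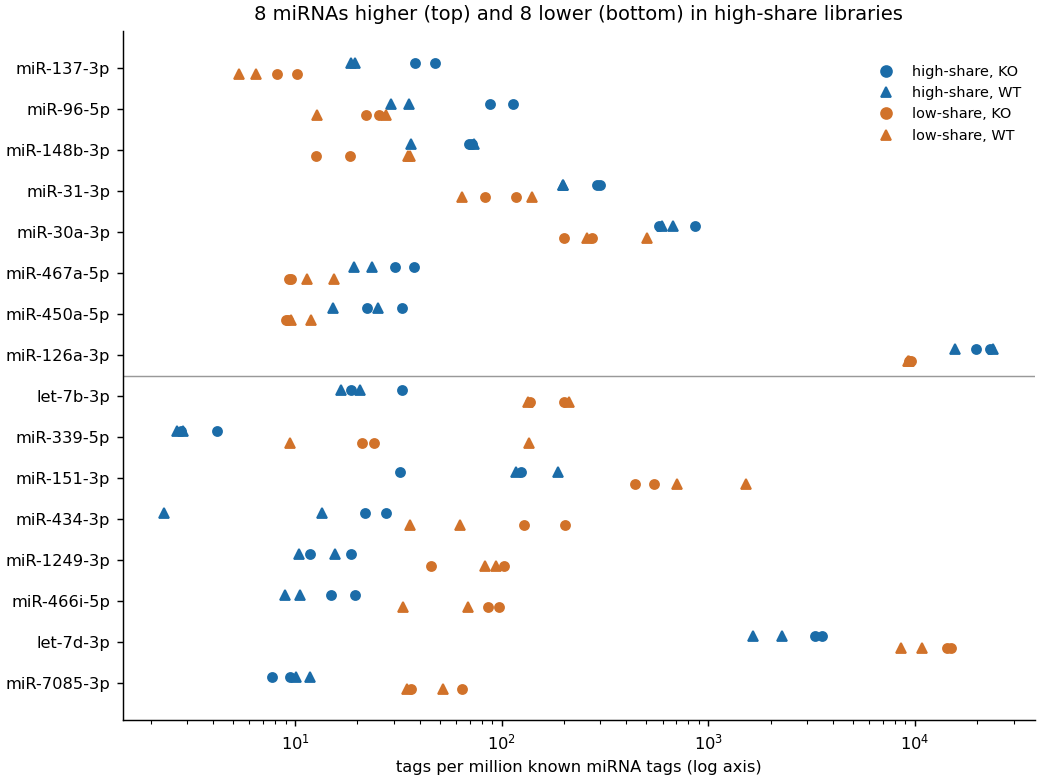
Tags per 1000000 known miRNA tags on a log axis, with 1 point per library (circles KO, triangles WT), for the 8 miRNAs furthest above (upper rows) and the 8 furthest below (lower rows) in high-share libraries. No row overlaps between the library groups, by the way the rows were chosen, and let-7d-3p and miR-126a-3p are the most abundant of the 16.

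The most abundant miRNAs overlapped between the groups. miR-122-5p had 463611 and 419857 tags in KO2 and KO3 and 427159 and 361201 in WT1 and WT2, against 387755 and 390064 in KO1 and KO4 and 329157 and 334503 in WT3 and WT4, a log2 difference of 0.21 with a residual SD of 0.09. Within each genotype every high-share library exceeded every low-share library for miR-122-5p. miR-22-3p, let-7c-5p and let-7a-5p had log2 differences of 0.16, -0.14 and 0.31, and the 2 let-7 arms share a run of at least 18 bases, so that the authors' counting could divide tags between them. miR-192-5p, a miRNA of hepatocytes and other epithelia, had a difference of -0.33. For miR-21a-5p, raised in injured liver, it was 0.43. Scale decides the sign of small differences: let-7c-5p turned to 0.15 as CPM, and miR-192-5p was -0.04 as CPM and 0.17 with median-ratio scaling.

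Members of the let-7 family, which restrains growth, differed in both directions. Of the 9 guide arms tested, 1 was higher, 1 lower and 7 overlapped, with a median of 0.15. let-7g-5p, chosen after its values were seen, had 16667 and 20249 tags in KO2 and KO3 and 19283 and 24217 in WT1 and WT2, against 10931 and 9723 in KO1 and KO4 and 12949 and 12144 in WT3 and WT4. let-7b-5p, with the same seed, had 21649.6 and 24555 in KO2 and KO3 and 22999 and 23677 in WT1 and WT2, against 49899 and 45685 in KO1 and KO4 and 39680.2 and 49662 in WT3 and WT4. The 2 arms differed in opposite directions, by 0.81 and -0.99. C is nearly absent from both, while G and C together made up 36.4% of let-7g-5p and 45.5% of let-7b-5p. Of the 12 passenger arms, 3 were lower (let-7b-3p, let-7d-3p and let-7e-3p), none higher and 9 overlapped, a count of lower members near the 29.1% over all miRNAs, with a median of -0.91 beside -0.51 over all miRNAs. The summed passenger arms amounted to 1975 to 3907 tags in high-share and 9176 to 15624 in low-share libraries, carried by let-7d-3p.

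In the other families at most 1 member was free of overlap, beside 169 of the 475 miRNAs in all. In the miR-30 family 1 of 5 guide arms was lower, miR-30d-5p with 1799 and 2527 tags in KO2 and KO3 and 1610.2 and 1821 in WT1 and WT2, against 7101 and 3368 in KO1 and KO4 and 7529.9 and 6145 in WT3 and WT4, and the median was -0.85. In the miR-378 family 1 of 5 was lower, miR-378a-5p with 483 and 141 in KO2 and KO3 and 375 and 407 in WT1 and WT2, against 908 and 1024 in KO1 and KO4 and 900.5 and 966 in WT3 and WT4. In the miR-183 cluster 1 of 4 was higher, miR-96-5p, and miR-182-5p had a difference of -0.54 and miR-183-5p one of 0.94, both with overlap. None of the 3 miR-29 miRNAs, the 7 of the miR-17-92a cluster or the 4 of miR-21 and miR-22 was free of overlap, and their medians were 0.54, -0.01 and 0.27. The medians of miR-17-92a and miR-378 turned to 0.26 and 0.16 as CPM and to 0.47 and 0.38 with median-ratio scaling, while those of the other families kept their sign.

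Markers of cell types were read on the same scale. Hepatocyte markers had a median of 0.08 over 8 miRNAs, with 1 lower, miR-122-3p, and summed to 418071 to 506786 tags in high-share and 393558 to 455274 in low-share libraries. The endothelial pair had a median of 0.74 and summed to 16007 to 24801 tags in high-share and 9637 to 10037 in low-share libraries. Only miR-126a-3p of the pair was free of overlap, and miR-126a-5p had a difference of 0.36 with overlap. Erythroid markers summed to 17462 to 22607 tags in high-share and 12849 to 14837 in low-share libraries, nearly all of it miR-451a, which had 19739.8 and 17076 tags in KO2 and KO3 and 22016 and 19164 in WT1 and WT2, against 12233 and 12389 in KO1 and KO4 and 12505 and 14034 in WT3 and WT4. The other 4 erythroid miRNAs overlapped, and the erythroid median was -0.01, turning to 0.26 as CPM. In bulk tissue, fewer cells of a type and less RNA per cell cannot be told apart.

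Markers of other cells overlapped in sum. Leukocyte markers, 7 of 7 tested, had a median of -0.53, close to that of all miRNAs, and summed to 1465 to 2495 tags in high-share and 2155 to 2641 in low-share libraries. Stellate and mesenchymal markers had a median of -0.85, with 2 of 6 lower, miR-145a-5p and miR-214-3p, beside 29.1% lower over all miRNAs. The list holds miR-199a-3p and miR-199b-3p, nearly the same sequence, with differences of 1.85 and -1.54. Summed, that pair had a difference of 0.53 with overlap. Biliary markers had a median of 0.06 and no member without overlap. Of the 6 pancreas and muscle miRNAs, miR-216a-5p and miR-217-5p, which define the exocrine pancreas, did not pass the filter, and the other 4 summed to 18.0 to 39.4 tags in high-share and 32.5 to 43.7 in low-share libraries. The part of cell makeup in the differences was not tested.

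Base composition followed the split across known miRNAs. Over the 402 matched miRNAs, the log2 difference had a Spearman correlation of -0.60 with the share of G and C bases. The points share the same 8 libraries and are no replicates, so this is a description. The median difference was 0.36 in 28 miRNAs with under 35% G and C, 0.10 in those with 35% to under 45%, -0.46 in 154 with 45% to under 55%, -0.93 in 79 with 55% to under 65% and -1.30 in 40 with 65% or more. In the lowest of these bins 5 were higher and 0 lower without overlap. In the highest, 0 were higher and 27 of the 40, 67.5%, lower, beside 29.1% of all 475.

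Single bases followed the difference less than G and C together. The correlation was -0.53 with the C share, 0.03 with the G share, 0.42 with the U share and 0.25 with the A share, and the 4 shares of a miRNA sum to 1. Of the 80 miRNAs with 35% C or more, 55 were lower without overlap and 0 higher, with a median of -1.25. Of the 78 with under 15% C, 9 were lower and 10 higher, with a median of -0.02. The G share showed no single direction. The median was -0.76 in 69 miRNAs with under 15% G, -0.30 in 146 with 15% to under 25%, -0.25 in 111 with 25% to under 35% and -0.77 in 76 with 35% or more. Within the 154 miRNAs of 45% to under 55% G and C the correlation with the C share was -0.31. Length, first base and mean abundance followed the split far less. The correlation was 0.08 with length and 0.06 with mean CPM, and the medians by first base ran from -0.65 for C to -0.44 for U.

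The composition pattern did not rest on 1 genotype, nor on rare miRNAs. The correlation of the difference with the G and C share was -0.59 in the KO libraries alone and -0.55 in the WT libraries alone, 2 against 2 each. It was -0.55 over 105 miRNAs of at least 100 CPM and -0.60 over the 297 below that. Taken library by library against the mean of all 8, it was -0.28, -0.49, -0.52 and -0.49 in KO2, KO3, WT1 and WT2, against 0.64, 0.41, 0.40 and 0.08 in KO1, KO4, WT3 and WT4. WT4, the low-share library nearest to the threshold, thus showed almost none of it. The mean G and C share over tags was 42.7% to 43.8% in high-share and 44.4% to 45.8% in low-share libraries, without overlap, over miRNAs that held 49.1% to 60.6% of the known miRNA tags. Names that share a run of 18 bases with another name were 21 of the 402, and without them the correlation was -0.60.

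**Figure D3:**
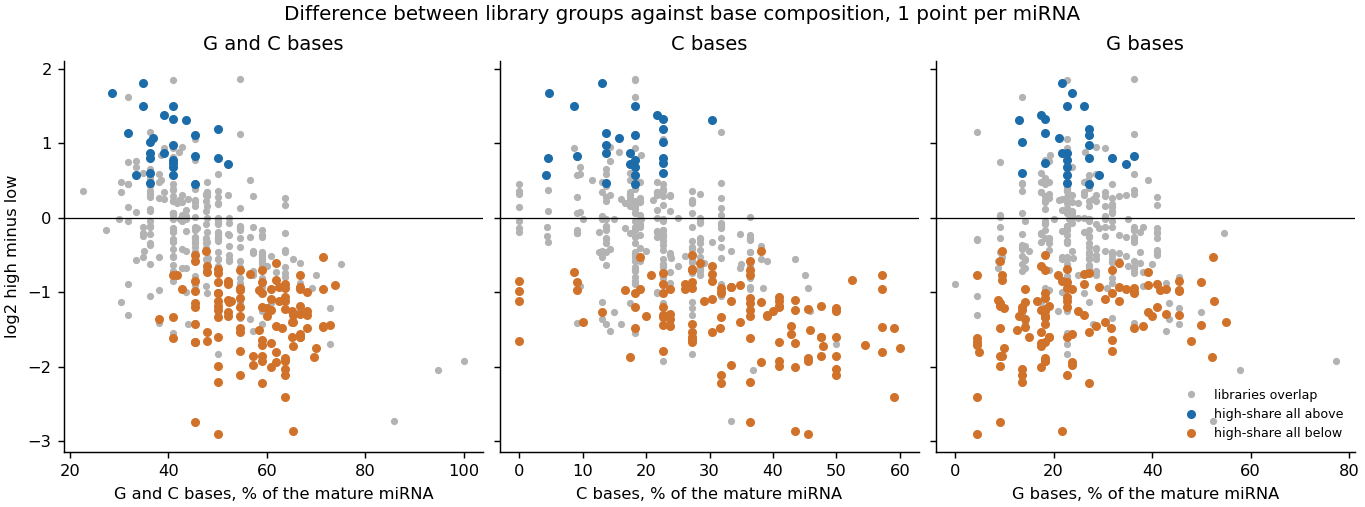
Log2 difference, high-share minus low-share, against the percent of G and C, of C and of G in the mature sequence, with 1 point per miRNA (n = 402). Blue points, with all high-share libraries above, lie at low G and C and low C content, and orange points, with all below, spread to the C-rich end, while the G panel shows no single slope.

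Ratios of the 2 arms of a hairpin do not depend on the scale. Both arms reached 1 CPM in all 8 libraries for 94 hairpins, and values are tags of the rarer arm per 100 tags of the other, not divided by length. The ratio did not overlap in 13 hairpins where it was higher in high-share libraries and in 13 where it was lower. It was higher for miR-30a (3p over 5p), with 32.8 and 41.1 in KO2 and KO3 and 72.5 and 68.6 in WT1 and WT2, against 9.18 and 11.4 in KO1 and KO4 and 5.58 and 16.9 in WT3 and WT4. For miR-30d (3p over 5p) it was 1.15 and 0.826 in KO2 and KO3 and 1.21 and 0.805 in WT1 and WT2, against 0.174 and 0.433 in KO1 and KO4 and 0.160 and 0.319 in WT3 and WT4. For miR-145a (3p over 5p) it was 23.4 and 27.8 in KO2 and KO3 and 26.0 and 42.4 in WT1 and WT2, against 3.67 and 9.45 in KO1 and KO4 and 8.81 and 6.37 in WT3 and WT4. In these 3 hairpins the rarer 3p arm took a larger part in every high-share library.

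The ratio was lower in high-share libraries for let-7d (3p over 5p), with 31.6 and 19.8 in KO2 and KO3 and 15.1 and 10.4 in WT1 and WT2, against 100.8 and 78.7 in KO1 and KO4 and 59.2 and 39.7 in WT3 and WT4. In KO1 the 2 arms of let-7d were about level. For let-7b (3p over 5p) it was 0.0860 and 0.135 in KO2 and KO3 and 0.0721 and 0.0866 in WT1 and WT2, against 0.399 and 0.300 in KO1 and KO4 and 0.532 and 0.271 in WT3 and WT4. For miR-151 (3p over 5p) it was 4.19 and 1.03 in KO2 and KO3 and 4.94 and 6.48 in WT1 and WT2, against 9.94 and 6.84 in KO1 and KO4 and 29.9 and 14.8 in WT3 and WT4. miR-339 (5p over 3p) and, in the other direction, miR-3073a (3p over 5p) completed the 8 hairpins furthest apart among those without overlap, with log2 differences of the ratio of -2.30 and 2.14. Where both arms had a sequence, in 73 hairpins, the difference had a Spearman correlation of -0.49 with the G and C share of the rarer arm minus that of the other. Of 41 hairpins whose rarer arm was richer in G and C, 8 were lower and 2 higher without overlap, and of 30 whose rarer arm was poorer, 1 was lower and 8 higher.

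**Figure D4:**
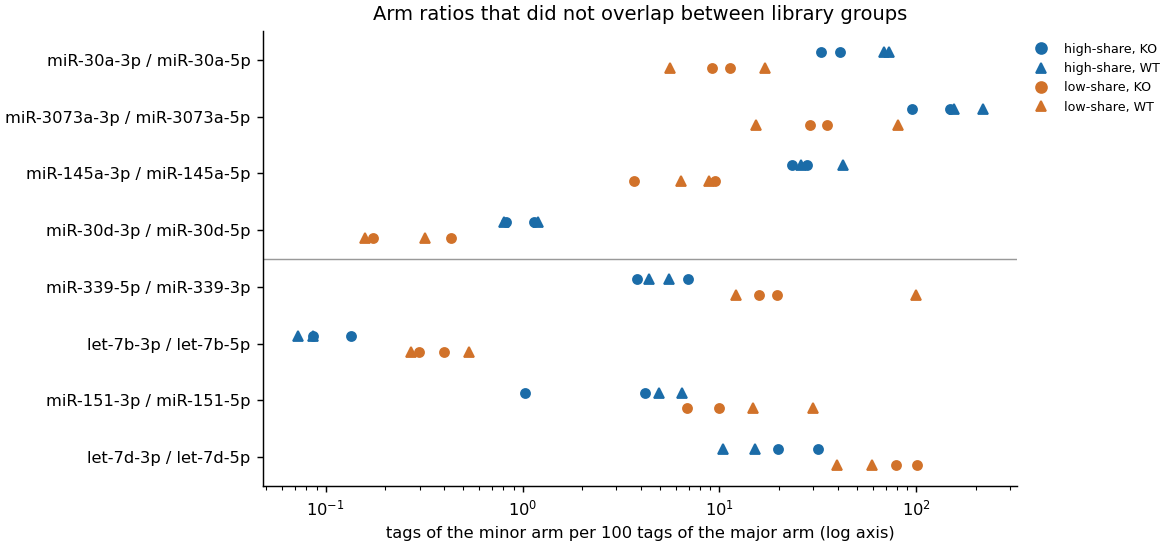
Tags of the rarer arm per 100 tags of the other arm on a log axis, with 1 point per library (circles KO, triangles WT). The upper 4 hairpins have higher and the lower 4 lower ratios in every high-share library, and the miR-30a ratio runs from 32.8 to 72.5 in high-share against 5.58 to 16.9 in low-share libraries.

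The 2 genotypes gave similar lists. Of the 475 miRNAs, 374 had the same sign of the high minus low difference in KO and in WT libraries. In KO libraries alone 114 were higher and 211 lower without overlap, and in WT libraries alone 54 were higher and 272 lower. In both at once 49 were higher and 173 lower, and 19 were without overlap in opposite directions. Across the 475 the 2 differences had a Spearman correlation of 0.72, as a description, since both come from a split made on the same files.

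piRNA rows were read per 1000000 tags outside known miRNAs, and 520 of them passed the filter. High-share libraries were all above in 47 of them, 9.04%, and all below in 14, 2.69%. As deposited CPM the direction turned round, with 13 above and 69 below and a median log2 difference of -0.46. The most abundant row, novel_pir414, a piRNA predicted in an ERV1 repeat, overlapped, with 3355 and 4513 tags in KO2 and KO3 and 3261 and 2619 in WT1 and WT2, against 4129 and 5016 in KO1 and KO4 and 5255 and 2976 in WT3 and WT4. So did mmu_piR_000691, novel_pir413 and novel_pir98. mmu_piR_005109 overlapped as well and had 24.9 in KO4 and 318 in WT2, against 1426 to 4262 in the other 6 libraries. Of the known piRNAs mmu_piR_012107 was higher in all high-share libraries, with 483 and 422 tags in KO2 and KO3 and 527 and 323 in WT1 and WT2, against 98.4 and 1.58 in KO1 and KO4 and 82.8 and 209 in WT3 and WT4. Its log2 difference of 3.23 was 1.86 without KO4 and 3.97 without KO1.

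Predicted piRNAs differed by the repeat class they were called in. The 77 rows in ERVL-MaLR elements had a median of 1.00 with 28 higher and 0 lower without overlap. The 47 rows in ERV1 elements had a median of -0.50, 46 of them negative, with 0 higher and 4 lower. The 38 in ERVK elements had a median of -0.61 with 1 higher and 5 lower, and the 259 in L1 elements one of -0.03 with 8 higher and 2 lower. Rows of 1 class share elements, 10 in ERVL-MaLR, 22 in ERV1, 25 in ERVK and 16 in L1, so they are not separate observations. As CPM, 9 ERVL-MaLR rows were higher and 3 lower, with a median of 0.26, and 17 ERV1 rows were lower, with a median of -0.99. The L1 rows then had 1 higher and 21 lower, with a median of -0.53, and the ERVK rows 0 higher and 12 lower, with a median of -0.85. novel_pir1276, in an ERVL-MaLR element, had 44.3 and 51.0 tags in KO2 and KO3 and 58.6 and 42.7 in WT1 and WT2, against 17.9 and 24.5 in KO1 and KO4 and 22.6 and 36.5 in WT3 and WT4. Lower in high-share libraries were novel_pir397, novel_pir466 and novel_pir371, in ERV1 and ERVK elements, by -1.21, -0.91 and -0.67 on the log2 scale. novel_pir470 was not listed in KO3, WT1 or WT2 and had 83.0 in KO2, against 121 to 240 in the low-share libraries.

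With the split in the model, KO and WT were compared within library groups. The split was made from the same files, so the spread it takes out of the model was chosen on the data, and p-values have to be read with that limit. By limma with Benjamini-Hochberg adjustment, 1 of the 475 known miRNAs passed an adjusted p of 0.05, 0.211% of them, and 59 had a p under 0.05 before adjustment, of which 32 were higher in KO and 27 were lower. Without the split the count was 0, with 17 at an unadjusted p under 0.05. The median standard error of the KO minus WT difference was 0.28 with the split and 0.40 without it.

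The miRNA that rose was miR-1247-5p, from the Dlk1-Dio3 region. In high-share libraries it had 228 and 177 tags per 1000000 known miRNA tags in KO2 and KO3, against 36.5 and 20.9 in WT1 and WT2. In low-share libraries it had 644 and 446 in KO1 and KO4, against 134 and 94.6 in WT3 and WT4. KO exceeded WT in both groups, while KO of the high-share group and WT of the low-share group came close. Its log2 difference was 2.53 (SE 0.28, adjusted p = 0.00589 from limma), and 0.488 was the adjusted p without the split. The high minus low difference of miR-1247-5p was -1.70, with overlap.

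miR-802-3p and miR-21a-5p came next without passing. miR-802-3p, of a liver miRNA tied to glucose metabolism, had 119 and 95.9 tags in KO2 and KO3 and 74.3 and 83.1 in KO1 and KO4, against 30.2 and 18.1 in WT1 and WT2 and 28.8 and 41.0 in WT3 and WT4. Its log2 difference was 1.66 (SE 0.30, adjusted p = 0.0735 from limma). miR-21a-5p had 34156 and 36161 tags in KO2 and KO3 and 28649 and 31340 in KO1 and KO4, against 57193 and 66370 in WT1 and WT2 and 40040 and 39620 in WT3 and WT4, a log2 difference of -0.61 (SE 0.11, adjusted p = 0.0735). Its KO and WT libraries did not overlap on this scale. As deposited CPM they did, with 25914 in KO2 and 28066.5 in KO3, beside 25076 in WT3 and 26788 in WT4. With a filter of 10 CPM in place of 1, 256 miRNAs were tested and both passed, with an adjusted p of 0.0328 each, and the calls numbered 5.

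The miR-183 cluster did not pass. With the split in the model miR-96-5p had a log2 difference of 0.96 (adjusted p = 0.316 from limma). The same model gave 1.34 for miR-182-5p and 1.03 for miR-183-5p, both with an adjusted p of 0.194 from limma. Without the split the adjusted p was 0.955 for all 3. For miR-96-5p the difference was 1.59 in high-share and 0.32 in low-share libraries, and the interaction had an adjusted p of 0.686.

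**Figure D5:**
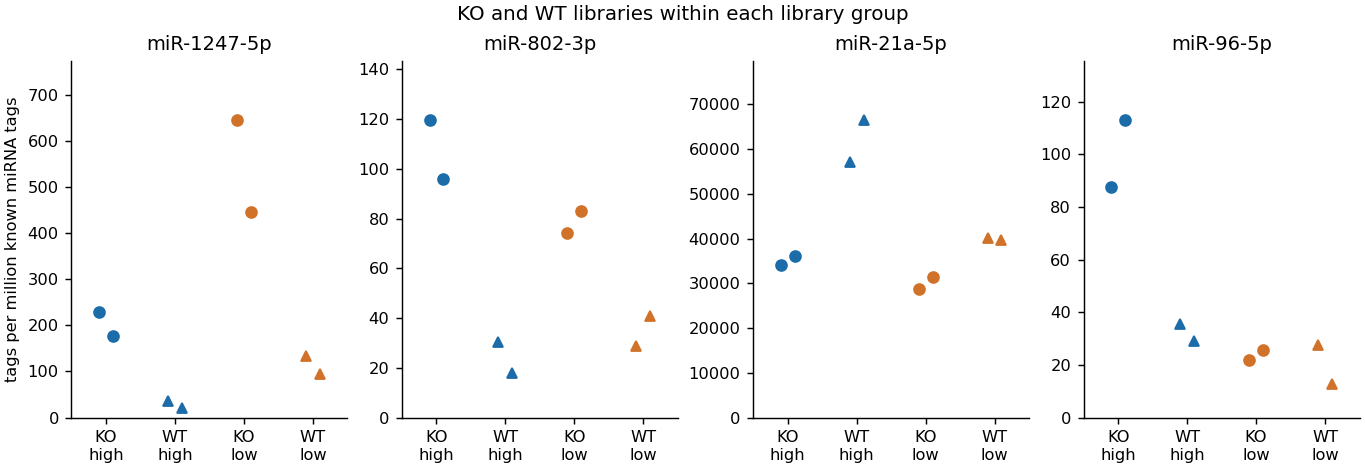
Tags per 1000000 known miRNA tags in KO (circles) and WT (triangles) libraries of the high-share and the low-share group, 2 libraries in each. For miR-1247-5p and miR-802-3p the KO values exceed the WT values in both groups, for miR-21a-5p they are lower, and miR-96-5p reaches 87.4 and 113 in the high-share KO libraries alone.

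No genotype difference was shown to depend on the library group. The limma interaction called 0 of 475 miRNAs, 0.0%, with 30 at an unadjusted p under 0.05 and a lowest adjusted p of 0.664. The 3 lowest were miR-30a-5p, miR-148a-3p and miR-30c-5p, whose KO minus WT differences were 1.102, 0.57 and 0.43 in high-share and -0.70, -1.05 and -1.23 in low-share libraries. With 2 libraries in each cell this design leaves 4 residual degrees of freedom. Without WT replicate 2 it called 1, miR-150-5p of lymphocytes, with an adjusted p of 0.0143. Among Rfam and piRNA rows, 0 of 689, 0.0%, passed for genotype with the split in the model, with 17 at an unadjusted p under 0.05 and 24 by limma-voom, which also called 0. Without WT replicate 2 the fit called 4.

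Base composition also followed genotype to some degree. The KO minus WT difference had a Spearman correlation of 0.37 with the G and C share, 0.23 within high-share and 0.31 within low-share libraries. The median difference was -0.35 in the miRNAs with under 35% G and C and 0.17 in those with 65% or more, beside -0.07 over all 475. miR-1247-5p has 72.7% G and C and 50.0% C, miR-802-3p 50.0% G and C and miR-21a-5p 36.4%. The part of composition in their differences was not tested.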

How the data were processed

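The deposited values were CPM of small RNA rows in 8 libraries (1 per mouse), which the authors made from 18 to 30 base BGISEQ-500 tags mapped to the mouse genome. The submitters' processing notes name Bowtie and GRCm38, with versions not given in the sources used here. The files state the column as TPM, and no length enters it. Library totals were inferred as the number that turned all values of a file into whole tags within 0.0051 CPM, so that agreement is partly built in. Known miRNAs were rescaled per 1000000 known miRNA tags and Rfam and piRNA rows per 1000000 tags outside known miRNAs, as log2(value + 1), for rows of at least 1 CPM in at least 4 libraries. Differences on this scale understate changes of low rows. Genotype was tested with limma 3.58.1 (R 4.3.3) with the library split as covariate, and its interaction with the split, adjusted over all rows of a table. The fits were tested on simulated data. Other values came from Python 3.11.15 with pandas 2.3.3, numpy 2.4.6 and scipy 1.17.1. P-values of the fits with the split measure the spread between these mice that the split leaves, and the split was made from the same data.

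Named rows were the 6 most abundant known miRNAs, the 8 furthest apart in each direction among those of at least 10 CPM without overlap, the 5 most abundant and 5 furthest apart Rfam and piRNA rows, the lowest p of the genotype fits, the 4 arm ratios furthest apart in each direction among those without overlap, the miR-183 cluster and examples of the gene lists. The members and lists were chosen with earlier results of these data known. Alternatives were other scales, pseudocounts and filters, each library left out, each genotype alone, no split, a replicate block and limma-voom on the recovered tags.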

Additional observations from a re-analysis of the deposited data

Results flagged for a closer look

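Of 218 sets of 4 libraries, 17 had 1 library set apart by a wide gap, which chance alone gives in about 1 set of 20. None of these gaps has an explanation tested here. Values are tags per 1000000 known miRNA tags unless another unit is named.

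Among the miRNAs that differed between the library groups, miR-148b-3p had 36.3 in WT2, beside 69.3 to 73.4 in the other high-share libraries. miR-450a-5p had 11.9 in WT4, beside 9.07 to 9.55 in the other low-share libraries. miR-339-5p had 4.17 in KO2 of the high-share group, beside 2.67 to 2.86, and 135.8 in WT3 of the low-share group, beside 9.41 to 24.1. miR-451a had 14034 in WT4, beside 12233 to 12505 in the other low-share libraries. The predicted piRNA novel_pir470 had 83.0 tags per 1000000 tags outside known miRNAs in KO2 and was not listed in the other high-share libraries.

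Other gaps fell in members of the cell type and family lists. miR-194-5p, a hepatocyte miRNA, had 4624 in KO1, beside 19618 to 21415 in the other low-share libraries. miR-29c-3p had 3089 in WT4, beside 962 to 1113, and miR-22-5p 754.6 in WT4, beside 496 to 536. miR-29b-3p had 93.4 in KO2, beside 133.6 to 134.3 in the other high-share libraries. miR-146a-5p had 1273 in WT1, beside 1707 to 1786. miR-206-3p, a muscle miRNA, had 1.30 in KO3, beside 0.678 to 0.712.

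In 3 sets the name shares a run of at least 18 bases with another name, so that the division of tags between the 2 names is uncertain. miR-199a-3p had 896 in WT4, beside 54.0 to 120.5 in the other low-share libraries, and miR-199b-3p had 960.3 in WT2, beside 53.5 to 105 in the other high-share libraries. Summed, the pair had 937 to 1313 in high-share and 498 to 985 in low-share libraries. let-7c-2-3p had 300.9 in KO3, beside 14.1 to 40.6 in the other high-share libraries.

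Known piRNAs took 0.112% of the tags in KO4, beside 0.366% to 0.414% in the other low-share libraries. The Rfam group of Y, 7SK, SRP and vault RNA with U7, RNase P and MRP summed to 282.6 CPM in WT2, beside 225 to 231 CPM in the other high-share libraries.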

How the results depend on the processing

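Counts of known miRNAs without overlap, 169 of 475 in all, were 90 of 256 with at least 10 CPM and 261 of 1341 without a filter. They were 335 of 484 in WT alone, 336 of 487 in KO alone and 167 to 195 with 1 library left out. The counts of each genotype alone are thus over other sets of rows than the 475 used above. For Rfam and piRNA rows, 95 of 689 in all, the counts without overlap were 28 of 132 with at least 10 CPM and 156 of 2384 without a filter. They were 282 of 715 in WT alone and 324 of 755 in KO alone. With 1 library left out they were 98 to 151, the 151 without WT replicate 4. With 2 against 2 libraries more rows are free of overlap by construction. Scale moved the directions: for Rfam and piRNA rows 78 higher and 17 lower became 24 and 85 as CPM and 59 and 32 with median-ratio scaling.

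Genotype calls among known miRNAs, 1 in all, were 5 with at least 10 CPM, 0 without the split and 1 to 2 with 1 library left out (without WT replicate 2 also miR-196b-5p, without Snd1 KO replicate 1 also miR-532-5p). miR-1247-5p was called in all of these but the fit without the split, with an adjusted p of 0.0101 to 0.0403 with 1 library left out. The genotype fit of Rfam and piRNA rows gave 0 to 4 calls with 1 library left out, highest without WT replicate 2. With 1 library left out the interaction rests on 1 library in a cell, so its calls are not read. For miR-148a-3p the KO minus WT difference of -0.24 ran from -0.48 to 0.045 with 1 library left out, positive without WT replicate 3 (0.020) and without Snd1 KO replicate 1 (0.045), and for miR-30a-5p the 0.20 ran from -0.030 without Snd1 KO replicate 3 to 0.53. The cause was not tested. Of 1494 high minus low values of 94 named rows under 16 alternatives, 1370 moved by less than the spread between libraries.

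KO and WT samples of the same replicate number had correlations of -0.46, 0.36, -0.52 and 0.07 in their deviations from the genotype means. The negative values were those of replicates 1 and 3, whose KO and WT libraries lie in different library groups. In deviations from the genotype and split means the correlations were 0.066, -0.23, 0.22 and -0.24. Whether samples of the same number share more than that number cannot be told from these values. With the replicate block the genotype calls were 1 (miR-1247-5p, adjusted p = 0.0427 by limma) for known miRNAs and 0 for Rfam and piRNA rows. The planned count-model test on recovered tags was not run, and limma-voom on them called miR-1247-5p alone. Cells of 2 libraries limit the interaction, and KO1 limits the genomic classes to 3 low-share libraries.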

Other observations

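Between 425 and 466 known miRNAs reached 1 CPM in high-share libraries, against 460 to 501 in low-share libraries, with overlap between KO3 and KO4. miR-122-5p took 36.1% to 46.4% of known miRNA tags in high-share libraries, against 32.9% to 39.0% in low-share libraries.

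Predicted miRNAs took 0.0259% to 0.147% of the tags in high-share libraries, against 0.0919% to 0.173% in low-share libraries, with overlap. The 12 predicted piRNA rows in a single hAT-Tip100 element had a median log2 difference of 0.82, high minus low, with 4 higher and 0 lower without overlap, and they share that element.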
